A study of Mus musculus with 6 samples.

Results

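A group of 4 genes within 546 kb of mouse chromosome 7 was followed in whole brains of mice that lacked Mphosph8 in the nervous system. The group holds 4930432E11Rik, a transcribed unitary pseudogene, A330087D11Rik, a long intergenic noncoding RNA (lincRNA) on the opposite strand inside it, and Catsperg1 and Catsperg2, a pair of paralogs that code for the gamma subunit of the sperm calcium channel CatSper. These are 4 of the 54532 genes listed in the count tables. The first 3 were chosen by their counts, which were higher in the mutants than in the controls, and Catsperg2 was added as the paralog of Catsperg1. Their mutant against control values are therefore given as a description, without a test. Among the tested members Catsperg1 lay nearest to the 2-fold limit used to call a gene, and Catsperg2 had too few counts to be tested.

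RNA was taken at postnatal day 14 from C57BL/6J mice, with 1 polyA-selected library per brain, 3 control and 3 mutant. Per the labels, controls were Mphosph8 fl/+ and mutants Mphosph8 fl/fl (labelled Mphosph8∆n), and all 6 animals carried the Nestin-Cre transgene. The study's text describes controls as Nestin-Cre+ littermates and names no floxed allele for them, so the labels were followed. By the labels, mutants are thus compared with heterozygous floxed animals that carry Cre, not with animals without a floxed allele. The loxP sites flank exon 4 of Mphosph8, and Nestin-Cre acts in neural progenitors and postmitotic neurons, so microglia, vessel cells and other cells outside that lineage keep the gene. In bulk tissue, fewer cells of a type and less RNA per cell cannot be told apart.

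MPP8, the product of Mphosph8, is a subunit of the HUSH complex, which silences transcription units in chromatin marked by trimethylated lysine 9 of histone H3. HUSH is known for repressing retrotransposons and long transcription units with few introns, often rich in adenine on the sense strand. A unitary pseudogene is a gene that lost its coding capacity without leaving a functional copy in the same genome. CatSper is the calcium channel of the sperm tail, with pore-forming subunits and auxiliary ones such as the gamma subunit, and its known site of action is the male germ line.

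In GRCm38 coordinates, 4930432E11Rik (ENSMUSG00000046958) runs from 29558579 to 29582169 on the plus strand of chromosome 7. Its exons of 49, 2870, 266 and 7686 bases make 10871 exonic bases, of which the last exon holds most. A330087D11Rik (ENSMUSG00000100111) runs from 29568903 to 29573928 on the minus strand, with exons of 49 and 1285 bases. It lies in the intron before the 266-base exon of 4930432E11Rik, and only its first 7 bases reach the exon that faces it. The first exon of the lincRNA and the start of the facing exon of the pseudogene are printed here because this is the only place where exons of the members meet. Capitals mark the 7 shared positions, which are complementary between the strands. The first exon of 4930432E11Rik, far upstream of that point, is given beneath them.
A330087D11Rik first exon, chr7:29573880-29573928, minus strand: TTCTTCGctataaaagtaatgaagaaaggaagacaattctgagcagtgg
4930432E11Rik start of the 266-base exon, chr7:29573922-29573981, plus strand: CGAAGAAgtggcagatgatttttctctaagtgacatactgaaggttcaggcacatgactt
4930432E11Rik first exon, chr7:29558579-29558627, plus strand: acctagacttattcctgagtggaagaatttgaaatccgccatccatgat

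**Figure D1:**
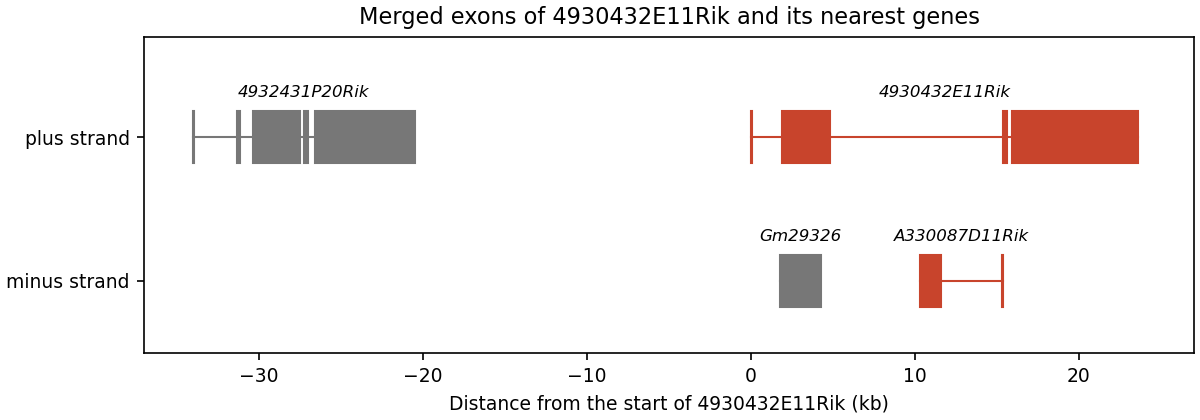
Merged exons (boxes) and introns (lines) of 4930432E11Rik, A330087D11Rik (both red) and the 2 annotated genes nearest to them (grey), by strand, with the distance in kb from the start of 4930432E11Rik on the horizontal axis. A330087D11Rik meets 4930432E11Rik over 7 exonic bases, whereas the grey box of Gm29326 lies almost wholly opposite its second exon.

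Catsperg1 (ENSMUSG00000049676, 29181321 to 29214035) and Catsperg2 (ENSMUSG00000049123, 29697219 to 29727032) lie on the minus strand on either side of the pseudogene, with 7044 and 7030 exonic bases. A representative coding sequence of each, 3453 and 3435 bases long, could be aligned over 3432 bases with 96.4% identity. Reads were 50 bases long, so the paralogs were compared in windows of that length. Of 3293 windows, 43.7% had no mismatch, the median was 1 and the largest number was 12. The windows below show what a read has to resolve, with mismatched bases in capitals and positions counted from the first coding base of Catsperg1. The first pair is the start of the coding sequence, with 1 mismatch, the second lies at the start of the longest identical run, from 1945 to 2285, and the last is a window with the most mismatches.
Catsperg1, coding bases 1 to 50: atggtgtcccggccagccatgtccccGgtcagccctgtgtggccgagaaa
Catsperg2, coding bases 1 to 50: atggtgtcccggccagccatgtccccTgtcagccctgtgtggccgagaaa
Catsperg1, coding bases 1945 to 1994: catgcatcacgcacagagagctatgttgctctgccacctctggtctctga
Catsperg2, coding bases 1945 to 1994: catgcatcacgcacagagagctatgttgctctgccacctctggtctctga
Catsperg1, coding bases 1660 to 1709: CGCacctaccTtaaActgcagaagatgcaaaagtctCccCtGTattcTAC
Catsperg2, coding bases 1660 to 1709: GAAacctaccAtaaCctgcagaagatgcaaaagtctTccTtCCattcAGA

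**Figure D2:**
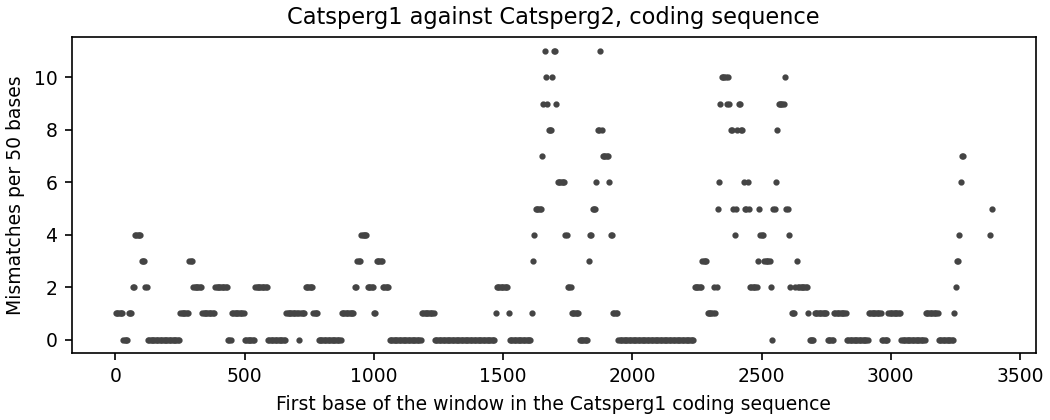
Mismatches between Catsperg1 and Catsperg2 in windows of 50 aligned coding bases (vertical axis), by the first base of the window in the Catsperg1 coding sequence (horizontal axis). A window is drawn every 5 bases, and long stretches sit at 0 mismatches, the longest of 341 bases.

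Over all annotated transcripts, 43.0% of the 8161 different 50-base words of Catsperg1 also occurred in another gene, which was Catsperg2 for each of them, and so did 44.1% of the 7961 words of Catsperg2. Reads from those stretches cannot be assigned to 1 of the paralogs, and the counts of both are uncertain to that extent. None of the 10488 words of 4930432E11Rik and none of the 1285 words of A330087D11Rik occurred in another gene, apart from genes that overlap them by position.

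The libraries held between 12956880 and 15223424 counts. Mphosph8 (ENSMUSG00000079184), the targeted gene, had 55.8, 48.6 and 70.7 counts per 1000000 counts (CPM, with TMM-scaled library sizes) in the controls and 33.1, 27.2 and 26.5 CPM in the mutants. Its level was lower in all 3 mutants, and the fitted log2 fold change was -1.02 ± 0.12 (SE, edgeR adjusted p = 0.000157). Control replicate 3 stood apart, as the only library with more than 1 read of the Y-linked genes Ddx3y, Eif2s3y, Kdm5d and Uty (1338 of Ddx3y). It had 27 reads of Xist, against 11130 to 17697 in the other libraries. By these genes it was the only male brain, so sex was not balanced between the groups. Member values are therefore also given without it. Of 8 oligodendrocyte markers, all 8 had lower fitted levels in the mutants and 3 passed an edgeR adjusted p of 0.05. The sum of these markers ran from 21889 to 26218 CPM in controls and from 17339 to 20114 CPM in mutants, with none at 0. The sum of 6 ependyma and choroid plexus markers was also lower in mutants without overlap, at 1060 to 1264 CPM against 1424 to 1723 CPM in controls, with none at 0. Most of it was Ttr, a choroid plexus transport protein gene, at -0.45 ± 0.11 on the log2 scale (edgeR adjusted p = 0.0764). The part of either marker list in the member values was not tested. Neuron, astrocyte and microglia sums overlapped between the groups, and none of their markers passed.

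4930432E11Rik had 43, 28 and 52 counts in the controls and 499, 708 and 731 in the mutants. As CPM these were 2.86, 2.05 and 3.51 in controls against 39.9, 52.8 and 53.1 in mutants. The lowest mutant lay far above the highest control, and the spread within each group was small beside that gap. The means were 2.81 ± 0.731 and 48.6 ± 7.56 CPM (SD, n = 3), which is a log2 fold change of 4.1 ± 0.16 (SE). Without control replicate 3 the log2 fold change was 4.30. Ordered by log2 fold change, it was number 6 of the 16731 genes tested.

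A330087D11Rik had 7, 5 and 5 counts in the controls and 22, 17 and 23 in the mutants. In CPM the controls were at 0.465, 0.366 and 0.337 and the mutants at 1.76, 1.27 and 1.67. The groups did not overlap, but the control values each rest on a handful of reads, and the gene passed the filter on low counts only through the mutants. Its log2 fold change was 1.98 ± 0.37, or 1.88 without control replicate 3, and it was number 15 in the order of log2 fold changes. The ratio of summed counts, scaled for depth, was 4.0 with an exact counting interval (95%) of 2.31 to 7.30, which covers counting error only.

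Catsperg1 had 23, 24 and 33 counts in the controls and 40, 76 and 63 in the mutants. The CPM values were 1.53, 1.76 and 2.23 in controls and 3.20, 5.67 and 4.58 in mutants. The lowest mutant, replicate 1, was still above the highest control, replicate 3. The log2 fold change was 1.29 ± 0.25, and 1.45 without control replicate 3. It was number 62 in the order of log2 fold changes.

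Catsperg2 had 2, 0 and 1 counts in the controls and 0, 4 and 7 in the mutants. The groups overlapped, since mutant replicate 1 and control replicate 2 were both at 0, and the gene did not pass the filter on low counts. Scaled for depth, the ratio of summed counts was 4.02, with a counting interval of 1.06 to 22.5. A single library moved it widely, from 7.90 without control replicate 1 to 2.24 without mutant replicate 3, and it was 3.98 without control replicate 3. A difference between the groups could not be read for Catsperg2 at this depth.

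**Figure D3:**
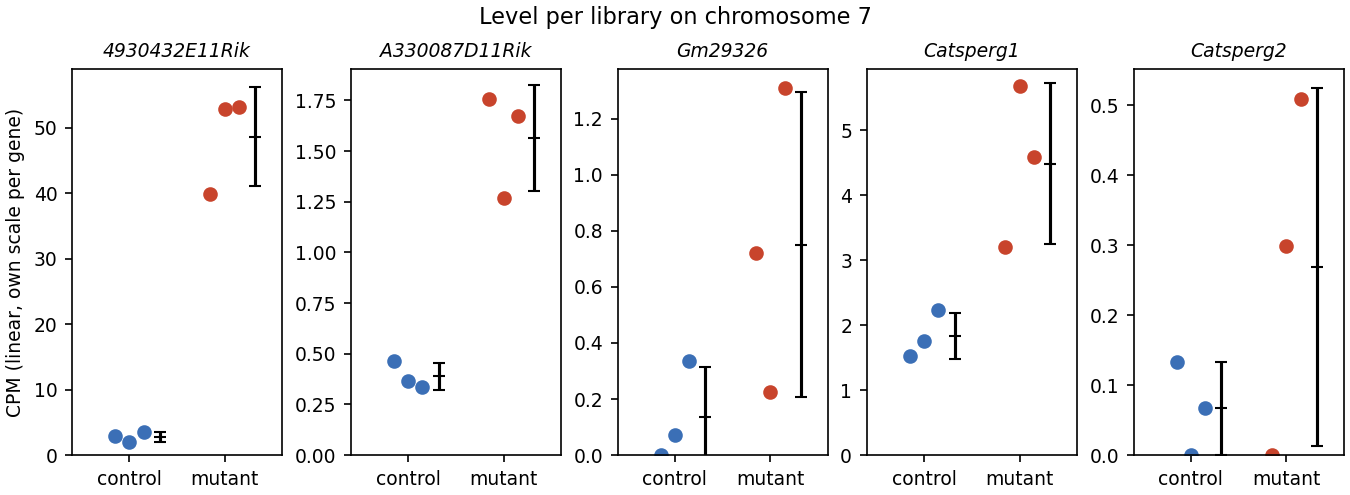
CPM per library (points, linear axis with its own scale for each gene) of the 4 members and of Gm29326 in 3 control (blue) and 3 mutant (red) brains, with the group mean and SD beside the points (bars are clipped at 0). The mutants lie above the controls without overlap for 4930432E11Rik, A330087D11Rik and Catsperg1, whereas Gm29326 and Catsperg2 overlap.

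Under the call rule (edgeR adjusted p under 0.05 and a fold change over 2), 0.353% of the 16731 genes tested were called higher in the mutants and 0.359% in either direction. The 3 tested members were among them, as their selection required, so nothing is read from that count. Likewise all 3 had no overlap between the groups with mutants higher, as did 6.23% of the genes tested. Of 1317 tested genes on chromosome 7, 4 were called. They were the 3 members and Trim30d (log2 fold change 1.20 ± 0.22), which starts at 104470014, far from the group.

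Per kilobase of exonic sequence, the control level was 0.258 ± 0.067 CPM per kb for 4930432E11Rik, 0.292 ± 0.050 for A330087D11Rik and 0.261 ± 0.051 for Catsperg1 (SD, n = 3), which differ by less than their spread. That scale counts all Catsperg1 exons, although 43.0% of its words also occur in Catsperg2. Per 1000 words that occur in no other gene, a scale added after the data were seen, Catsperg1 controls were at 0.395 ± 0.076 CPM, above 0.268 ± 0.070 for 4930432E11Rik and 0.303 ± 0.052 for A330087D11Rik by more than the SDs. In the mutants the order was 4930432E11Rik at 4.47 ± 0.696, A330087D11Rik at 1.17 ± 0.196 and Catsperg1 at 0.637 ± 0.176 CPM per kb. The step from 4930432E11Rik to A330087D11Rik was larger than their SDs on either scale. The step from A330087D11Rik to Catsperg1 was larger than their SDs per kb but not on the other scale. Per 1000 words in no other gene they were at 1.22 ± 0.204 and 0.964 ± 0.267 CPM. Catsperg2 was lowest, at 0.0095 ± 0.0095 in controls and 0.038 ± 0.036 CPM per kb in mutants.

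The share of 4930432E11Rik in the reads of the 4 members shifted with genotype, from 57.3, 49.1 and 57.1% in the controls to 88.9, 88.0 and 88.7% in the mutants. The groups differed by a smaller factor for the lincRNA inside it. It had 16.3, 17.9 and 9.62 reads per 100 reads of 4930432E11Rik in controls and 4.41, 2.40 and 3.15 in mutants, with means of 14.6 ± 4.37 and 3.32 ± 1.01 (SD, n = 3). These ratios rest on 5 to 7 lincRNA reads per control library and follow from the counts that chose the members.

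The counting of reads by strand bears on this antisense pair. Of 454 genes whose exons lie wholly opposite exons of other genes, 27.5% reached 10 counts in the sum of the 6 libraries. Among 42753 genes without exonic overlap 33.5% did. Where exons lay wholly within exons on the same strand, this was 0.399% of 752 genes. Counting thus followed the strand. These shares do not measure a small fraction of reads counted on the wrong strand, which was not tested. For A330087D11Rik the exonic overlap is limited to 7 bases, but the rest of its exons lies opposite an intron of 4930432E11Rik. Whether unspliced reads of that intron were counted on the wrong strand was not tested.

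A further lincRNA, Gm29326 (ENSMUSG00000100400, 29560365 to 29562815, minus strand), has 2321 of its 2451 bases opposite the second exon of 4930432E11Rik. It had 0, 1 and 5 counts in the controls and 9, 3 and 18 in the mutants, and it did not pass the filter on low counts. Mutant replicate 2 lay below control replicate 3, so the groups overlapped. The ratio of summed counts was 5.49, with a counting interval of 2.25 to 16.1. Per 100 reads of 4930432E11Rik it had 0, 3.57 and 9.62 reads in controls and 1.80, 0.424 and 2.46 in mutants. Whether some of these were reads of 4930432E11Rik counted on the wrong strand was not tested.

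Upstream on the plus strand lies 4932431P20Rik (ENSMUSG00000074224, 29524543 to 29538055), also a transcribed unitary pseudogene. Its last 3 exons, of 2873, 272 and 6088 bases, follow the same order of sizes as those of 4930432E11Rik, yet none of its 9429 words of 50 bases occurred in another gene. It had 2, 1 and 2 counts in the controls and 1, 1 and 4 in the mutants, too few for a test. The ratio of its summed counts was 1.32, with a counting interval of 0.335 to 5.45. Inside Catsperg1, on the opposite strand, the processed pseudogene Gm17113 shared no exonic base with it and had 1 count, in mutant replicate 3.

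To see whether the change extended along the chromosome, all 80 other annotated genes with a base within 500 kb of the group were taken, of which 46 passed the filter. None of the 46 was called by edgeR, DESeq2 or limma-voom. Over all tested genes edgeR called 0.359%, so 0 of 46 lies near that share and cannot show how far the change extended. At an unadjusted p under 0.05 there were 4 (Ccer2, Spred3 and Sipa1l3 higher, Ppp1r14a lower), where 6.51% of all tested genes passed. Mutants lay above controls without overlap in 4, beside the 6.23% given above, and below them in 3, as in 905 of the 16721 tested genes with an annotation. The median log2 fold change was -0.05, against -0.01 over all tested genes, and the values ran from -0.50 to 0.63.

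The genes that flank the members showed small fitted differences. Sipa1l3 codes for a protein related to Rap GTPase activators and lies at lower coordinates than the pseudogenes, with its start facing them. It had 839, 698 and 790 counts in controls and 848, 807 and 913 in mutants. Scaled for depth these were 55.8, 51.1 and 53.3 against 67.8, 60.2 and 66.4 CPM, without overlap. Its log2 fold change was 0.28 ± 0.08 (edgeR adjusted p = 0.239). Zfp84, a zinc finger gene beyond Catsperg2, was at -0.11 ± 0.11. Psmd8, a proteasome subunit gene, and Kcnk6, a potassium channel gene, lie on either side of Catsperg1 and were at -0.01 ± 0.08 and 0.19 ± 0.13. Mutants of Kcnk6 also lay above its controls without overlap (9.52 to 11.2 against 8.38 to 9.31 CPM), whereas the groups of Zfp84 and Psmd8 overlapped.

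The largest absolute values among the tested neighbours were those of Ccer2, Ppp1r14a and Ggn. Ccer2 had 26, 15 and 22 counts in controls and 28, 27 and 34 in mutants, and was at 0.63 ± 0.27 on the log2 scale (edgeR adjusted p = 0.679). Ppp1r14a, which codes for an inhibitor of myosin phosphatase, was at -0.50 ± 0.18 (adjusted p 0.433, or 0.0197 without a filter on low counts), with 343 counts in control replicate 1 and 137 to 210 in the other libraries. Ggn, a gene of germ cell development, was at -0.29 ± 0.33. Of 14 tested Zfp genes at higher coordinates than Catsperg2, beyond its start, none passed an unadjusted edgeR p of 0.05, and the median was -0.07. Values were positive in 2 and negative in 12, where 8759 of the 16721 tested genes with an annotation were negative. The 3 neighbours with mutants below controls without overlap were all among these 14.

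**Figure D4:**
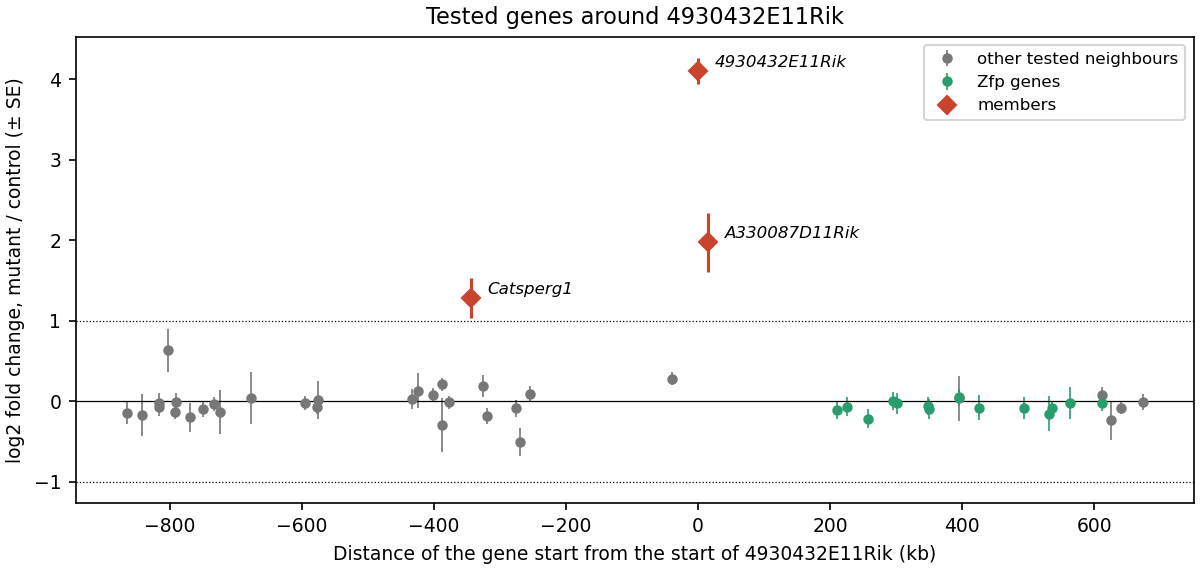
Log2 fold change, mutant over control, with its SE (vertical axis) of the tested genes within 500 kb of the group, by the distance in kb of each gene's start from the start of 4930432E11Rik, with dotted lines at the 2-fold limits. The 3 tested members (red diamonds, at 4.1, 1.98 and 1.29) stand above the 46 neighbours, which lie between -0.50 and 0.63.

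The other genes of the CatSper complex were looked at to place Catsperg1. Of 14 such genes outside the group, 4 passed the filter on low counts and none was called by edgeR, DESeq2 or limma-voom. Over all tested genes edgeR called 0.359%, so 0 of 4 lies near that share and nothing is read from it. At an unadjusted edgeR p under 0.05 there was 1 (Catsperd), where 6.51% of all tested genes passed. The pore subunit gene Catsper2 had 276 control and 242 mutant counts and was at -0.06 ± 0.17 on the log2 scale. Among auxiliary subunits, Catsperz was at -0.02 ± 0.20, Catspere2 at 0.34 ± 0.35 and Catsperd at 0.91 ± 0.34. Catsperd had 29 and 50 counts over the groups and an edgeR adjusted p of 0.526. Its CPM values were 0.532, 0.732 and 0.742 in controls and 1.12, 1.34 and 1.31 in mutants. It was the only 1 of the 4 with mutants above controls without overlap, as were 6.23% of all tested genes. The pore subunit gene Catsper3 (15 and 21 counts) and Efcab9, which codes for a calcium-binding partner of Catsperz (12 and 18 counts), were not tested. Catsper1, Catsperb and C2cd6 had 0 counts in all 6 libraries.

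Markers of male germ cells, where CatSper acts, were scarce. Prm2, Tnp1, Tnp2, Acrv1 and Odf1 had 0 counts in all 6 libraries and Prm1 had 1. The sum of the 8 markers, mostly reads of Ddx4 and Sycp3, was 1.53 to 2.16 CPM in controls and 1.20 to 2.04 CPM in mutants, which overlap.

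Because the paralogs share sequence, their reads were also added up. Catsperg1 had 23 of 25, 24 of 24 and 33 of 34 of these reads in the controls and 40 of 40, 76 of 80 and 63 of 70 in the mutants. As shares these were 92.0, 100 and 97.1% against 100, 95 and 90%, which overlap. The exact binomial intervals (95%) were wide, for example 74.0 to 99.0% in control replicate 1 and 80.5 to 95.9% in mutant replicate 3. The group means were 96.4 ± 4.05 and 95 ± 5.0% (SD, n = 3), and over all 6 libraries the share was 94.9%, or 94.7% per kilobase of words that occur in no other gene.

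The members also differed in features that the selection did not use. The longest exon of 4930432E11Rik, of 7686 bases, was longer than that of 98.5% of tested genes, whose median was 2036 bases, and adenine made up 35.5% of its longest annotated transcript, more than in 99.3% of tested genes. A330087D11Rik, with a longest exon of 1285 bases and 27.9% adenine, was longer than 29.8% and richer in adenine than 73.6% of tested genes. Catsperg1, which has up to 29 exons, had a longest exon of 1659 bases and 24.9% adenine, near the median of 25.5%. Catsperg2 had nearly the same values, 1662 bases and 24.9%. The upstream pseudogene 4932431P20Rik, with 5 control and 6 mutant counts, also ranked high. Its longest exon and adenine share exceeded those of 96.14% and 96.03% of tested genes. Among the 5 genes most like 4930432E11Rik in profile, named below, longest exons ran from 306 (Gm10800) to 6292 bases (3222401L13Rik). Their adenine ran from 18.3% (Gm10800) to 36.9% (Zfp990). Whether either trait goes with the change was not tested. RefSeq promoter windows (GRCm38.p6) matched Catsperg1 alone of the 4 members. Of its 2 windows of 300 bases, the upstream one held TATAAA, as did 13.6% of the 32851 windows, and the other held GGGCGG, as did 35.7%, while CCAAT (37.4%) and TGACGTCA (1.79%), searched on both strands, were in neither.

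**Figure D5:**
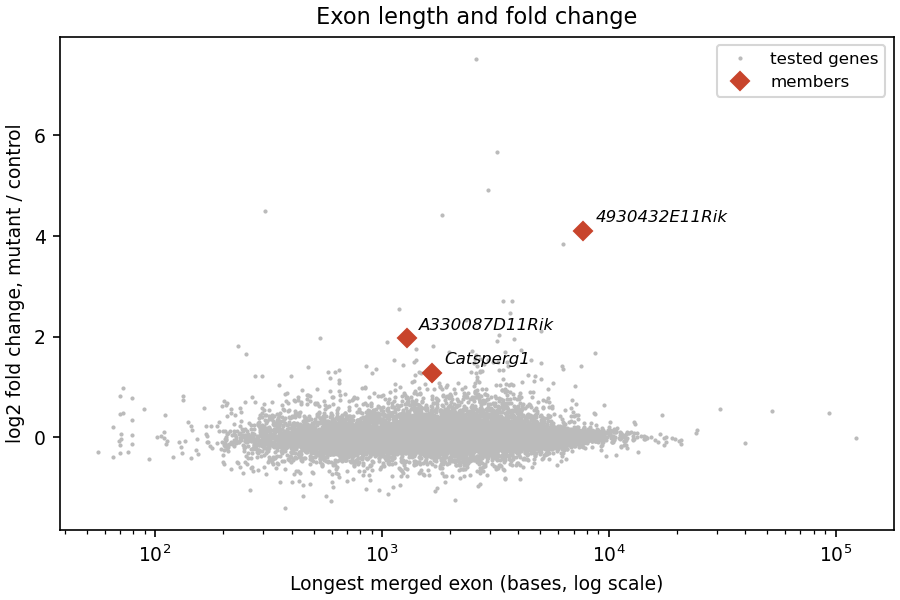
Log2 fold change, mutant over control (vertical axis), against the longest merged exon in bases (horizontal axis, log scale) of all tested genes (grey) and of the 3 tested members (red). 4930432E11Rik lies far to the right at 7686 bases, whereas A330087D11Rik and Catsperg1 lie at 1285 and 1659 bases, below the median of 2036.

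The tested genes whose profile over the 6 libraries was most like that of 4930432E11Rik were 3222401L13Rik, Pcdhb6, Gm10800, Zfp990 and Gm13136. Likeness was the Euclidean distance between log2(CPM + 0.5) values centred on each gene's mean, 0.81 for the nearest and 2.42 for the last of the 5. This distance mostly reflects the same contrast of mutants and controls that chose 4930432E11Rik, so the list is a description only. 3222401L13Rik, a single-exon lincRNA of 6292 bases on chromosome 18, had 30, 24 and 22 counts in controls and 292, 337 and 366 in mutants. It runs from 37655451 to 37661742, in the region where the study examined protocadherin exons, as does Pcdhb6. Pcdhb6, a protocadherin gene of the beta cluster on chromosome 18, had 42, 54 and 49 against 275, 307 and 283. Gm10800 had 3, 0 and 2 counts against 58, 20 and 32. Zfp990, a zinc finger gene on chromosome 4, had none in the controls and 20, 17 and 28 in the mutants. Gm13136, a processed pseudogene on the same chromosome, had 1, 0 and 1 against 19, 20 and 26. Gm10800, Zfp990 and Gm13136 passed the filter on low counts only through the mutants.

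The profiles of A330087D11Rik and Catsperg1 were farther from it, at 3.38 and 3.50. Like 4930432E11Rik, 3222401L13Rik shared no 50-base word with another gene. For Pcdhb6, Gm10800, Zfp990 and Gm13136 the shares were 7.54, 27.4, 29.1 and 77.1%, so the counts of these 4 may hold reads of copies. None of the 5 lies on chromosome 7.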

How the data were processed

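The deposited values are raw counts per Ensembl gene, 1 table per library, made by the authors from single reads of 50 bases that were trimmed (Trim Galore 0.5.0), freed of contaminant sequence (Bowtie2 2.3.4.1), aligned to GRCm38 with STAR and counted with featureCounts (Subread 1.6.2). No source used here gives the strand setting or the handling of multiply aligned reads. The counts were fitted with edgeR 4.0.16 (R 4.3.3; filterByExpr, TMM, quasi-likelihood F test, genotype as the only term), with Benjamini-Hochberg adjustment over 16731 tested genes. Calls needed an adjusted p under 0.05 and a fold change over 2. The SE of an edgeR log2 fold change was derived as its absolute value over the square root of its F statistic. CPM are per effective library size, and counting intervals are exact (95%) and cover counting error only. Symbols, coordinates and transcripts are from GENCODE M21 (GRCm38), which matched 54495 of 54532 identifiers. The fit was tested on simulated counts with known changes.

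The members, the lists and the alternatives were chosen with earlier results of these data known. Named genes are the members, Mphosph8, genes overlapping a member, the nearest tested gene on each side of a member, the 3 tested neighbours with the largest absolute log2 fold change when none is called, CatSper genes with at least 10 counts, and the 5 most similar profiles. Gm29326 and Gm17113 enter as overlapping genes. Other genes given with values, among them Trim30d, Ttr, 4932431P20Rik, Spred3, Eid2b and CatSper genes with fewer counts, were chosen after their values were seen. Each library is a separate brain. Alternatives were RLE factors, DESeq2 1.42.0, limma-voom 3.58.1, other filters, libraries left out in turn, a replicate block, a window of 1 Mb, no fold limit and 36-base words. A level per words in no other gene was added after the data were seen. Repeat reads and protein sequences were not analysed here.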

Additional observations from a re-analysis of the deposited data

How the results depend on the processing

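In all 12 other fits the log2 fold changes of 4930432E11Rik (3.93 to 4.30), A330087D11Rik (1.88 to 2.13) and Catsperg1 (1.08 to 1.47) kept their direction, and these ranges were set by leaving out 1 library at a time. Leaving out 1 library gave ratios of 2.24 to 7.90 for Catsperg2, Catsperg1 shares of 94 to 96.6%, 0 called neighbours, 0 called CatSper genes, 47 to 67 called genes in all, and -1.13 to -0.85 for Mphosph8. Mphosph8 fell short of the 2-fold limit without control replicate 3 (-0.85), mutant replicate 2 (-0.98) or mutant replicate 3 (-0.96), with adjusted p from 0.000719 to 0.00429. Without a filter on low counts 1 neighbour was called, Gm29326 (log2 fold change 2.38 ± 0.63, edgeR adjusted p 0.0277), which the filter had left out, and 96 genes were called in all. In that fit Ppp1r14a, a neighbour with a value in the other direction (-0.51 ± 0.13), had an adjusted p of 0.0197 but stayed within the 2-fold limit. Without the fold limit 105 genes passed, with none among the neighbours. Within 1 Mb none was called, and Eid2b (0.77 ± 0.10, adjusted p 0.00036) passed without the fold limit. With words of 36 bases the shares found in other genes were 51.7% for Catsperg1 and 52.7% for Catsperg2. Per 1000 words in no other gene, a scale added after the data were seen, the Catsperg1 levels of 0.261 and 0.637 CPM per kb became 0.395 and 0.964.

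The groups share replicate numbers, but deviations of same-numbered libraries correlated at 0.107, -0.065 and 0.093, so the numbers were not taken as pairing. With the replicate number as a block the members were at 4.1, 1.99 and 1.27, Mphosph8 was at -1.0, and 62 genes were called, with none among neighbours or CatSper genes. Depth limits the values of A330087D11Rik, Catsperg2 and Gm29326, with at most 23, 7 and 18 counts in a library.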
